A study of Mus musculus with 6 samples.

Results

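The inhibitor of differentiation (Id) genes and a set of genes under control of bone morphogenetic proteins (BMPs) were followed in 4T1 cells after nucleofection with Cas9 and guides. 4T1 is a line of mouse mammary carcinoma cells, derived from BALB/c, that spreads readily in the animal. The set holds 10 of the 31017 genes in the count table: Id1, Id2, Id3 and Id4, the inhibitory Smads Smad6 and Smad7, Smad9, Bambi, Atoh8 and Dlx1. The members were chosen by name from these families, with the differences between the KO and control libraries already known for some of them. Their KO against control values are therefore a description and carry no p-value. The number of members called is given beside the share or number of all genes called, and nothing is read from it.

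The 3 control libraries came from cells given Cas9 with control guides. The 3 libraries labelled FGFR2 KO, called KO here, came from cells given Cas9 with guides named for FGFR2, a receptor for fibroblast growth factors. Both groups share the 4T1 background, the Cas9 nucleofection and the culture in collagen I gels, under medium with 10% serum. Whether a clone or a mixed pool was grown, for how long, and in gels of 1.2 or of 2.4 mg/ml collagen is not given in the labels. The comparison asks how transcripts of cells in a collagen matrix differ between these guides.

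BMPs bind pairs of type I and type II receptor kinases, which phosphorylate Smad1, Smad5 and Smad9. These join Smad4, enter the nucleus and switch on a short list of direct targets, among which the Id genes are the best known. Id proteins have a helix-loop-helix domain for pairing but no basic region for DNA contact, so they hold E proteins and other basic helix-loop-helix (bHLH) factors away from DNA. In mammary epithelium Id genes are known for holding back differentiation and for roles in tumour spread. Smad6, Smad7 and Bambi are targets that in turn inhibit the pathway.

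The libraries held 15531790 to 20447719 counts, and the biological coefficient of variation over all genes was 4.00%. Fgfr2 itself ran from 95.9 to 106 CPM (counts for each 1000000 of the library total after TMM scaling) in the control libraries and from 81.2 to 101 CPM in the KO libraries. The groups overlapped through KO replicate 1 (log2 fold change -0.11, edgeR adjusted p = 0.113), and without that library Fgfr2 was called lower, at -0.17 (edgeR adjusted p = 0.00810). Reads outside a cut site do not check a KO label, and the position of the guides is not given. The summed level of 6 mammary epithelial markers ran from 3806 to 3915 CPM in control and from 3995 to 4127 CPM in KO libraries, with Krt5 at 0 counts in all 6. Within that sum Krt14, a basal keratin, stood at 60.2 in control and 958 CPM in KO libraries, and Krt18, a luminal keratin, at 1402 and 918 CPM. All 7 endothelial markers stayed below 1 CPM in every library, and 4 of them (Kdr, Tek, Emcn and Cldn5) had no count. The sum of 7 leukocyte markers ran from 13.9 to 15.9 CPM in control and from 5.99 to 8.49 CPM in KO libraries, with Cd3e and Adgre1 at 0 counts in all libraries and Cd68 making up most of it. Of 6 fibroblast markers, 4 stayed below 1 CPM and Lum had no count. The summed fibroblast level ran from 36.3 to 38.2 CPM in control and from 39.7 to 45.4 CPM in KO libraries. Pdgfra, a receptor gene, made up most of it, with means of 36.4 CPM in control and 39.4 CPM in KO libraries. The part of these markers in the members' values was not tested. In such bulk RNA a smaller share of cells that transcribe a gene and less RNA per cell cannot be told apart.

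Of the 10 members, 9 passed the filter on low counts, all but Bambi. A gene is called here when its adjusted p lies below 0.05 in edgeR's quasi-likelihood fit over all 12158 tested genes. In that fit 8 members were called higher and 1, Id4, was called lower in the KO libraries, counts that follow in part from how the members were chosen. The background is large: 54.6% of all tested genes were called, 27.1% as higher and 27.5% as lower. No overlap between the 3 KO and the 3 control libraries was seen for all 9 tested members and for 59.5% of all tested genes. The median log2 fold change was 1.36 over the 9 tested members and -0.01 over all tested genes. Smad9 and Atoh8 reached the filter level of 0.524 CPM in 2 and in 1 of the control libraries, so they passed it only with the KO libraries, where they are high. The filter thus favoured a difference in both genes, and nothing is read from their calls. The highest KO library was replicate 2 for Id1, Id3, Id4, Smad6 and Dlx1, replicate 3 for Id2, Smad7 and Atoh8, and replicate 1 for Smad9.

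**Figure D1:**
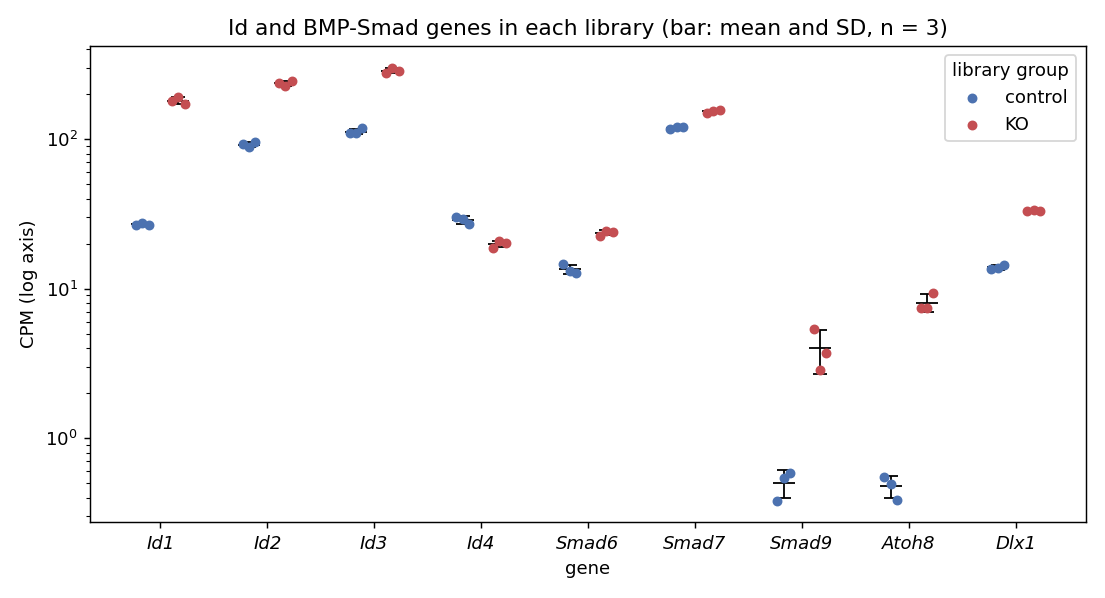
CPM (log axis) of the 9 tested members in each control (blue) and KO (red) library, with black bars for the mean and SD (n = 3 per group). The KO points of Id4 lie below its control points, those of the other 8 genes lie above, and Smad9 and Atoh8 start from control levels near 0.5 CPM.

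Id1, the classical sensor of BMP signalling (chromosome 2, 152736251 to 152737410, plus strand), stood at 26.5, 27.6 and 26.7 CPM in control replicates 1 to 3. In KO replicates 1 to 3 it stood at 181, 191 and 172 CPM. The KO values lie far above the control values and differ little among themselves. The log2 fold change of KO over control was 2.75 (SE 0.053), a 6.73-fold higher level. Counts ran from 413 to 561 in control and from 3389 to 3748 in KO libraries, so counting noise is small.

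Id2, which is expressed in many epithelia and blood cells (chromosome 12, 25093799 to 25097140, minus strand), had 93.0, 88.1 and 95.4 CPM in control replicates 1 to 3. It had 238, 228 and 246 CPM in KO replicates 1 to 3. Id3 (chromosome 4, 136143497 to 136145755, plus strand), which often shares its pattern with Id1 in development, had 110, 110 and 118 CPM in control replicates 1 to 3. It had 276, 302 and 287 CPM in KO replicates 1 to 3. Neither gene showed overlap between groups. Id2 was 2.58-fold higher, a log2 fold change of 1.37 (SE 0.043). Id3 was 2.56-fold higher, a log2 fold change of 1.36 (SE 0.042), so the estimates of Id2 and Id3 lie within 1 SE of each other.

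Id4, which in the mammary gland marks basal cells and immature states (chromosome 13, 48261228 to 48266026, plus strand), was the member that went the other way. It stood at 30.4, 29.1 and 27.1 CPM in control replicates 1 to 3 and at 18.8, 20.7 and 20.3 CPM in KO replicates 1 to 3. Every KO library lay below every control library. The log2 fold change was -0.54 (SE 0.079), which leaves 0.689 of the control level. An antisense RNA (A330033J07Rik) and a lincRNA (Gm49291) overlap Id4 on the opposite strand with at most 1 and 2 counts in any library.

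Because the 4 Id genes moved by unequal amounts, their make-up shifted. Summed per kilobase of exon, they reached 131 ± 3.30 CPM per kilobase in the control and 420 ± 10.8 in the KO libraries (SD, n = 3), a ratio of 3.20. Id1 made up 17.7% ± 0.735 of this sum in control and 37.3% ± 1.31 in KO libraries. Id3 went from 47.8% ± 0.921 to 38.3% ± 0.865, and Id2 from 28.8% ± 0.674 to 23.2% ± 1.41. Id4 held 5.71% ± 0.446 in control and 1.23% ± 0.0461 in KO libraries (all SD, n = 3). Id1 thus went from rank 3 among the 4 shares to a share close to that of Id3, and in KO replicate 1 it was ahead of Id3, at 37.8% against 37.3%. With the longest annotated transcript as gene length the mean shares of Id1 and Id3 in the KO libraries were 30.8% and 44.4%, so this closeness rests on the length used.

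**Figure D2:**
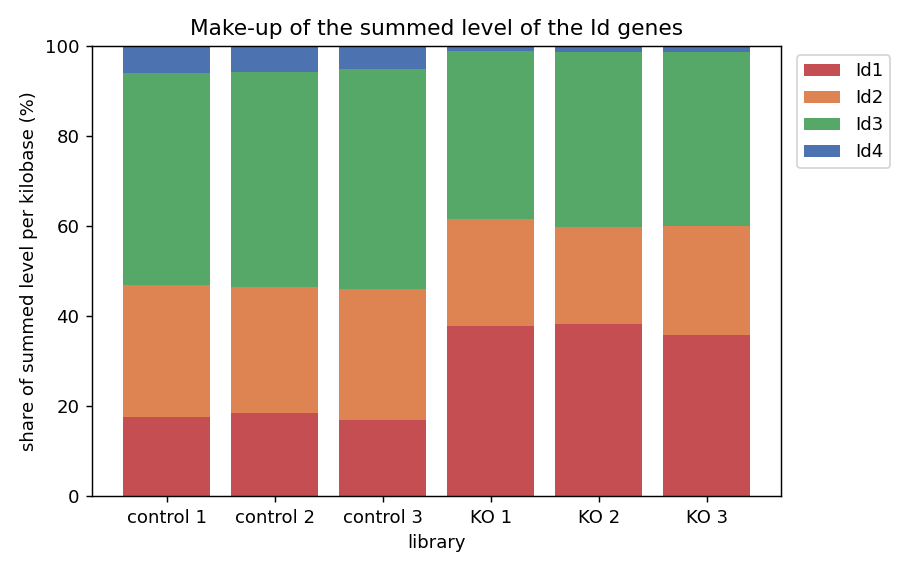
Share (%) of Id1, Id2, Id3 and Id4 in their summed level per kilobase of exon, as a stacked bar for each of the 6 libraries. Id1 takes 17.0% to 18.5% of the bar in the control and 35.8% to 38.2% in the KO libraries, while Id4 shrinks to between 1.18% and 1.27%.

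Promoter sequences, from 250 bases before to 50 after a RefSeq transcription start (GRCm38.p6, the assembly of mm10), were matched by symbol for 7 of the 10 members: Id2, Id3, Id4, Smad6, Smad9, Atoh8 and Dlx1. Those of Id2 and Id3, which were higher by nearly the same amount, and of Id4, which was lower, are shown 5′ to 3′ so that the 3 can be read side by side. Capitals mark GGCGCC, a palindrome known as the GC-rich element that Smad1 and Smad5 bind.
Id2 (chr12:25096043-25096342, minus strand): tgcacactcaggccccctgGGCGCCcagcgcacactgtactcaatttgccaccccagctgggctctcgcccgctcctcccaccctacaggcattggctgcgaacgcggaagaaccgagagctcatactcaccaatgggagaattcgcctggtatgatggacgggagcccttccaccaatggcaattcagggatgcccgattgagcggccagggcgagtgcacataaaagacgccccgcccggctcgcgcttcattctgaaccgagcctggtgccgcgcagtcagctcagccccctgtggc
Id3 (chr4:136143572-136143871, plus strand): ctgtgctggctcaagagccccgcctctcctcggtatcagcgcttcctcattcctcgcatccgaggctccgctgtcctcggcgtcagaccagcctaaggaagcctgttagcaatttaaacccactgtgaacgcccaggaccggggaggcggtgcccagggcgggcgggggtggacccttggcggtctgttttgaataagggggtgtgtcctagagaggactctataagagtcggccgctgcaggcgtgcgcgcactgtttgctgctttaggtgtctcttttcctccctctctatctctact
Id4 (chr13:48260866-48261165, plus strand): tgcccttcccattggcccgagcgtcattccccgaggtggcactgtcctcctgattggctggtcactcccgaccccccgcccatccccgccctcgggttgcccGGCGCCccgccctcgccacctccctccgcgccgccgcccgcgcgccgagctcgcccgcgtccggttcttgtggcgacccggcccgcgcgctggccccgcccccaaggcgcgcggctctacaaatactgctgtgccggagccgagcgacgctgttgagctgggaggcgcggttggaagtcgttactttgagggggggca
GGCGCC occurs once each in the windows of Id2 (first base at -231 from the start), Id4 (-148) and Smad9 (-51). It was thus in 3 of 7 member windows, against 11.9% of 32851 promoter windows of the same length, and it stood in Id4, which was lower, as well as in Id2, while these letters are not in the window of Id3. The related GGAGCC, searched on both strands, was in 5 of 7 windows (Id2, Id3, Id4, Smad6 and Smad9) and in 30.8% of all. GTCTG, 1 form of the general Smad binding element, searched on both strands, was in 1 of 7, with 2 matches in Id3, and in 49.6% of all windows. Other forms of this element were not searched, so the count does not cover all Smad binding elements in these windows. The member windows were rich in G and C, from 60.0% in Id3 to 73.7% in Smad9 against a median of 52.7% over all windows, and GC-rich motifs are more frequent in such sequence. GGGCGG, the GC box, was in all 7 (35.7% of all windows), and TATAAA in 0 of 7 (13.6%). CANNTG, the E-box that bHLH factors bind, was in 4 of 7 and in 72.3% of all windows. No GGCGCC match overlapped a match of another motif searched. These matches are descriptions of letters, not of bound sites.

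Smad6, an inhibitory Smad that acts mainly on BMP receptors (chromosome 9, 63953076 to 64022059, minus strand), stood at 14.6, 13.1 and 12.8 CPM in control replicates 1 to 3. It stood at 22.6, 24.3 and 24.0 CPM in KO replicates 1 to 3. The groups were clearly apart, with a log2 fold change of 0.81 (SE 0.090), or 1.75-fold. Smad7, which blocks both TGF beta and BMP receptors (chromosome 18, 75367529 to 75395935, plus strand), had 118, 120 and 121 CPM in control and 151, 154 and 157 CPM in KO replicates 1 to 3. Its log2 fold change of 0.36 (SE 0.041) was the smallest among the members that were higher, 1.29-fold.

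Smad9, also known as Smad8, is the third receptor-activated Smad of the BMP branch and is itself a BMP target (chromosome 3, 54755582 to 54801257, plus strand). It was barely detected in the control libraries, with 7, 11 and 9 counts (0.382, 0.542 and 0.581 CPM). The KO libraries held 101, 56 and 75 counts (5.40, 2.86 and 3.70 CPM), the widest spread of any tested member, with a coefficient of variation of 32.5%. Even the lowest KO library lay well above the highest control library. The log2 fold change was 2.98 (SE 0.32), or 7.88-fold.

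Atoh8, a bHLH factor that is induced by BMPs in endothelium and liver (chromosome 6, 72206177 to 72235577, minus strand), had 10, 10 and 6 counts in control replicates 1 to 3 (0.545, 0.492 and 0.387 CPM). It had 138, 146 and 189 counts in KO replicates 1 to 3 (7.38, 7.46 and 9.33 CPM). Its log2 fold change of 4.05 (SE 0.25) was the largest among the members, 16.6-fold. The endothelial markers given above were below 1 CPM in every library.

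Dlx1, a homeobox factor that responds to BMPs in development (chromosome 2, 71528113 to 71533981, plus strand), had 13.6, 13.7 and 14.5 CPM in control and 33.0, 33.9 and 33.0 CPM in KO replicates 1 to 3. The 3 KO libraries were within 1 CPM of each other. The log2 fold change was 1.26 (SE 0.080), or 2.40-fold. Dlx1as, an antisense RNA that spans the whole gene, had 2 to 5 counts in each library.

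Bambi, a receptor-like inhibitor without a kinase domain (chromosome 18, 3507923 to 3516404, plus strand), had 0 counts in all 3 control libraries. It had 3, 0 and 5 counts in KO replicates 1 to 3, so the groups overlapped at 0. Set against a floor of 3 counts over the control group, the 8 KO counts as they stand are at least 2.47-fold higher. Pooled over the KO libraries the level was 0.137 CPM (95% exact Poisson interval 0.0590 to 0.269, counting error only), against a control floor of 0.0554 CPM. The lower limit of that interval is 1.07 times the floor, which is a set value and not an interval limit of the control counts. Without a filter on low counts Bambi was tested as well and was not called. At this depth a difference in Bambi is therefore not resolved.

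**Figure D3:**
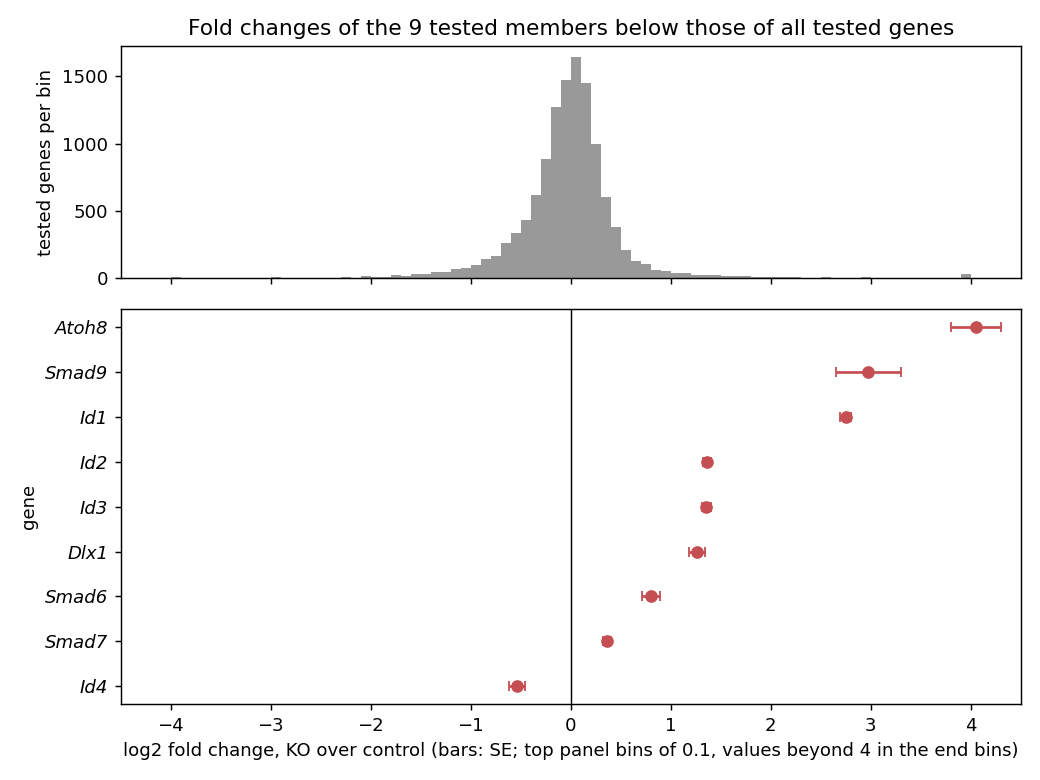
The lower panel gives the log2 fold change (KO over control, bars for the SE) of each tested member, and the upper panel counts all 12158 tested genes in bins of the same axis. Atoh8, Smad9 and Id1 lie at 4.05, 2.98 and 2.75, where few tested genes are found, while Smad7 at 0.36 and Id4 at -0.54 lie within the bulk.

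Compared per kilobase of exon, the order of levels in the control libraries was Id3 (62.9 ± 2.71 CPM per kilobase), Id2 (37.8 ± 1.53), Smad7 (26.5 ± 0.417), Id1 (23.2 ± 0.510), Id4 (7.50 ± 0.426), Smad6 (4.21 ± 0.305), Dlx1 (2.58 ± 0.0892), Atoh8 (0.189 ± 0.0321) and Smad9 (0.0934 ± 0.0197) (SD, n = 3), with Bambi at 0. The ranges over libraries did not overlap between any neighbours in this order. In the KO libraries Id3 (161 ± 7.11 CPM per kilobase) and Id1 (156 ± 8.51) led with overlapping ranges and were not distinguished. Id2 (97.3 ± 3.67), Smad7 (34.1 ± 0.749), Smad6 (7.38 ± 0.280), Dlx1 (6.17 ± 0.0929), Id4 (5.17 ± 0.260), Atoh8 (3.21 ± 0.441), Smad9 (0.743 ± 0.241) and Bambi (0.0268 ± 0.0247) followed (SD, n = 3), each without overlap with the next. Id1 thus went from rank 4 to rank 2 and Id4 from rank 5 to rank 7. With the longest annotated transcript as length, Dlx1 and Smad6 traded places in the KO libraries, at ranks 5 and 6. With that length the KO ranges of Id3 (216 to 236 CPM per kilobase) and Id1 (148 to 165) did not overlap, so their closeness rests on the length used.

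**Figure D4:**
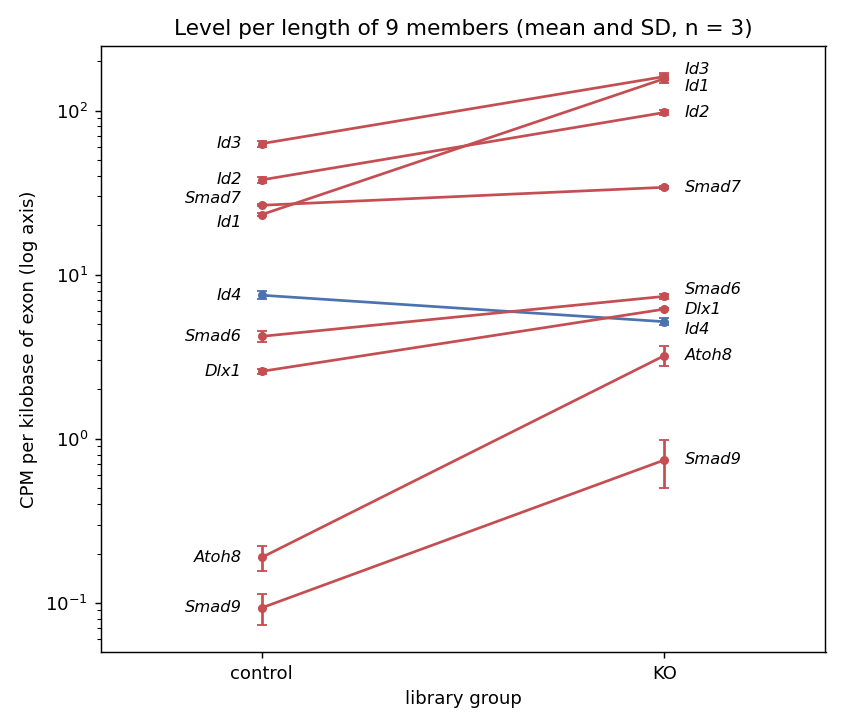
Mean level per kilobase of exon (log axis, bars for the SD, n = 3) of 9 members in the control and KO libraries, joined by lines that are red where the level was higher in KO and blue where it was lower. The Id1 line crosses those of Smad7 and Id2 to end at 156, beside Id3 at 161, and the Id4 line crosses those of Smad6 and Dlx1.

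The genes upstream of the members were taken from lists of 119 further genes, of which 60 could be tested. They follow by role. Of 14 BMP ligands, 7 had no count in any library and 1 passed the filter. This was Bmp7, a ligand made by many epithelia, which fell from 83.4 ± 1.08 to 25.4 ± 1.95 CPM (SD, n = 3), or by 1.71 on the log2 scale (SE 0.060; edgeR adjusted p = 3.55e-24). The part of Bmp7 in the members' values was not tested.

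Of 12 receptors and co-receptors, 9 were tested, with 3 higher, 3 lower and 3 not called (median log2 fold change 0.08). Among all tested genes 27.1% were called higher and 27.5% lower, and nothing is read from these counts. The type I receptor gene Acvr1 was higher by 0.38 on the log2 scale (SE 0.056, edgeR adjusted p = 4.28e-07), and the co-receptor endoglin (Eng) by 0.56, from 44.7 to 66.2 CPM. Rgma, a membrane-anchored BMP co-receptor, was higher by 0.38. The related Rgmb fell by 0.45, betaglycan (Tgfbr3) fell by 1.26, from 31.3 to 13.0 CPM, and the type II receptor gene Acvr2b fell by 1.02. The main BMP receptors passed no test in the fit described above: Bmpr1a stood at 125 and 133 CPM (log2 fold change 0.08, edgeR adjusted p = 0.0898) and Bmpr2 at 112 and 105 CPM (-0.09, edgeR adjusted p = 0.0733) in control and KO libraries. Acvr2a, another type II receptor gene, stood at 17.8 and 19.8 CPM and was not called either. Bmpr2 was called lower at -0.12 by upper quartile scaling (edgeR adjusted p = 0.0271) and at -0.10 with a filter of 5 CPM. Bmpr1b, another type I receptor gene, did not pass the filter, with 0, 7 and 10 counts in control and 2, 0 and 0 in KO replicates 1 to 3. Without a filter on low counts it was called lower at -2.99 (edgeR adjusted p = 0.0343), from counts near 0 in both groups. Eng shares 61 annotated bases with Fpgs on the opposite strand.

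Of 16 secreted antagonists, 7 were tested, of which 4 were higher (27.1% of all tested genes were) and 3 not called (median log2 fold change 0.56). Of those 4, Nog and Fstl1 reached the filter level in 0 and in 1 control library and were tested only because they are high in the KO libraries, so nothing is read from this count. Nbl1, which binds BMPs outside the cell, was higher by 0.56, from 38.0 ± 1.92 to 55.7 ± 1.53 CPM (SD, n = 3; edgeR adjusted p = 3.89e-10), and Fstl3, an activin-binding protein, by 0.38. Noggin (Nog) and Fstl1 were higher from very low levels, Nog from 0.257 to 1.17 CPM and Fstl1 from 0.435 to 1.69 CPM. For Fstl1 the log2 fold change went from 2.03 to 2.68 without control replicate 3. With a filter of 5 CPM the latter pair could not be tested. Those not called were Fst (0.838 and 1.35 CPM), Twsg1 (153 and 160 CPM) and Dand5 (4.01 and 4.09 CPM).

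The Smad transducers and their regulators were mostly close to their control level. Of 17 tested, 2 were higher, 2 lower and 13 not called, against 54.6% of all tested genes called. The median log2 fold change of the list was -0.01. The median size of the change was 0.09, against 0.21 over all tested genes. Smad1 and Smad5 carry the BMP signal. For Smad1 the log2 fold change was 0.09, with a 95% interval of -0.02 to 0.20 and an edgeR adjusted p of 0.164. Smad5 gave -0.08, with an interval of -0.17 to 0.01 (edgeR adjusted p = 0.144). Smad4, the partner of all receptor-activated Smads, gave -0.11 (edgeR adjusted p = 0.0561), and it was called lower with upper quartile scaling, with a filter of 5 CPM and without KO replicate 1, at -0.14, -0.12 and -0.15. Smad3, which serves the TGF beta branch, fell by 0.73, from 303 ± 4.09 to 183 ± 6.26 CPM (SD, n = 3; edgeR adjusted p = 6.54e-19). Ctdsp2, a phosphatase that acts on Smads, fell by 0.39. The co-repressor Ski was higher by 0.27, and Smurf1, a ubiquitin ligase that marks Smads and receptors for degradation, by 0.15.

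Among 19 other genes known as BMP targets, 8 had no count in any library and 7 were tested, of which 6 were higher and 1 was not called (median log2 fold change 0.88), against 27.1% of all tested genes called higher. Of the 6, Hey1 and Gata2 reached the filter level in 1 control library each and Dlx2 in 0, so they too were tested only through the KO libraries and nothing is read from this count. Gata3, Runx2 and Unc5b passed it in all 6 libraries. Hey1, a transcription factor shared with the Notch pathway, went from 0.408 ± 0.204 to 3.69 ± 0.487 CPM (SD, n = 3), or by 3.10 on the log2 scale (SE 0.33). Unc5b, a netrin receptor, was higher by 0.88, from 225 to 415 CPM, Gata3 by 0.49 and the bone regulator Runx2 by 0.39. Dlx2, the genomic neighbour of Dlx1, was higher from 0.211 to 0.751 CPM, and Gata2 from 0.650 to 1.23 CPM. The call of Gata2 is weak: its groups overlapped, and it was lost in 8 of 13 alternatives, among them DESeq2 and leaving out control replicate 1 or 2 or KO replicate 1 or 3. The remaining gene, Alpl, stood at 1.05 and 0.976 CPM. Gata3 and Runx2 overlap annotated genes on the opposite strand (4930412O13Rik with 91 to 227 counts and Supt3 with 270 to 432), and no strand setting is given for the counts.

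Of 10 tested targets of the TGF beta branch (Smad2 and Smad3), 7 were higher, 2 lower and 1, Snai1, not called. The median log2 fold change was 0.94. Among all tested genes 27.1% were called higher and 27.5% lower. The list was written with some earlier results of these data known, so nothing is read from this count. Ltbp2, a matrix protein, was higher by 1.29, from 222 ± 3.88 to 543 ± 16.5 CPM (SD, n = 3; edgeR adjusted p = 2.35e-27), and Thbs1, which encodes an activator of latent TGF beta, by 1.22. Ltbp3, which helps to store TGF beta in the matrix, fell by 0.96, from 1085 to 559 CPM, and Col7a1 fell by 0.51. Ltbp2 shares 764 annotated bases with D030025P21Rik on the opposite strand. Smad7 and the Id genes are known to respond to both branches.

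Of 21 E proteins and other bHLH partners of Id proteins, 11 had no count in any library and 5 were tested. The E protein gene Tcf3 stood at 226 and 221 CPM (edgeR adjusted p = 0.476) and Tcf12, of the same class, at 111 and 105 CPM (edgeR adjusted p = 0.176), neither of them called. Tcf4, also an E protein gene, fell by 0.19 (edgeR adjusted p = 2.20e-04) and Twist1, a bHLH factor of mesenchymal cells, fell by 0.29. Scx, a tendon and matrix regulator, was higher by 0.93, from 31.1 to 59.3 CPM. Scx lies within the gene body of Bop1 on the opposite strand, which had 704 to 1495 counts. Whether exons of this pair overlap was not compared, and no strand setting is given for the counts. Cyclin-dependent kinase inhibitors are a class that E proteins are known to activate. Of 7 listed, 3 could not be tested, among them Cdkn2a and Cdkn2b with 0 counts in every library. The 4 tested inhibitors gave 0 calls by edgeR, 1 at an unadjusted p below 0.05, and 0 by DESeq2 and by limma-voom. Among all tested genes 54.6% were called by edgeR. The log2 fold changes of these 4 inhibitors ran from -0.08 for Cdkn2c (edgeR adjusted p = 0.0804) to 0.12 for Cdkn2d. Cdkn2c was called lower with upper quartile scaling, with a filter of 5 CPM and without KO replicate 2, at -0.10, -0.09 and -0.10. Cdkn1a stood at 68.1 ± 2.86 and 67.7 ± 3.65 CPM and Cdkn1b at 206 ± 9.64 and 209 ± 2.76 CPM (SD, n = 3).

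**Figure D5:**
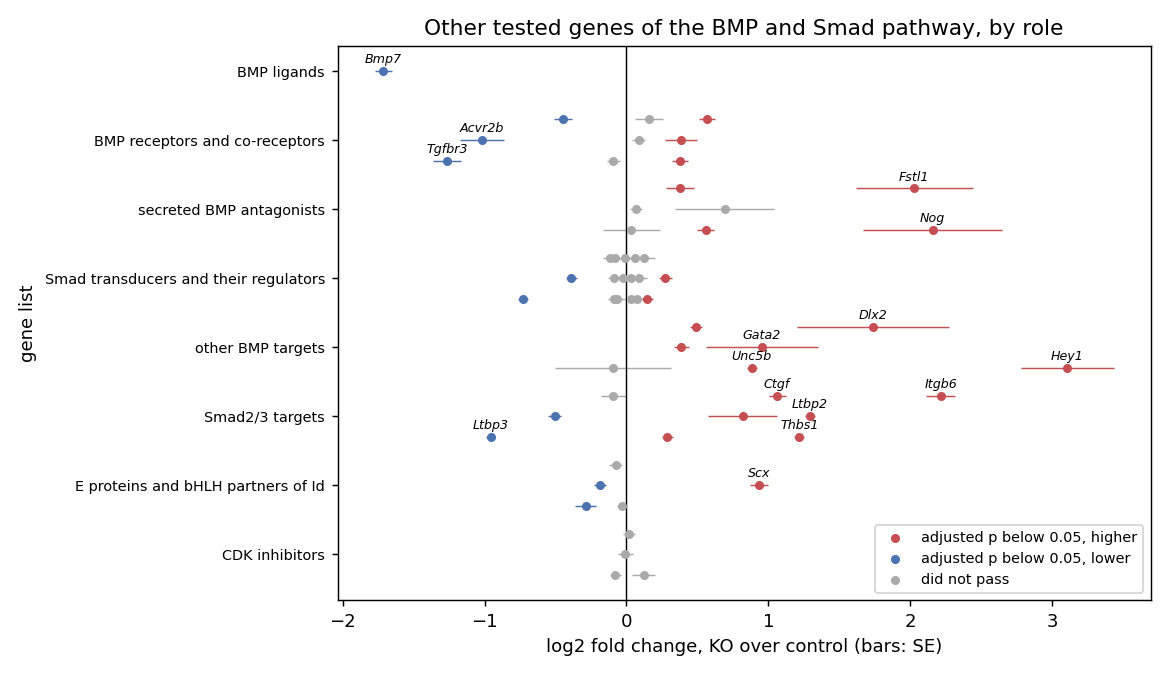
Log2 fold change (KO over control, bars for the SE) of the 60 tested pathway genes that are not members, without 1 Smad2/3 target that is not reported, 1 row per role, red where called higher, blue where called lower and grey where not called. The Smad transducers cluster near 0, Bmp7 lies alone at -1.71, and the called points of the antagonists and other BMP targets lie to the right of 0. Of these called genes, Nog, Fstl1, Dlx2, Hey1 and Gata2 were tested only through the KO libraries, so nothing is read from that side.

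The genes most like Id1, Id2 and Id3 in pattern were sought among 10056 other genes with at least 5 CPM. The measure was the root mean square difference over the 6 libraries, on log2 CPM centred on the control mean, so likeness here is mainly likeness in the size of the difference between groups. For Id1 they were the keratin gene Krt16 (a difference of 0.0767 on the log2 scale), the heparan sulfate editing enzyme gene Sulf2 (0.0945), the proliferin gene Prl2c3 (0.118) and the annexin gene Anxa8 (0.151). Prl2c3 has near-identical copies, and how reads shared between them were counted is not given. For Id2 they were Nqo1 (0.0449), which encodes a quinone reductase, the atypical cadherin gene Fat1 (0.0527), the stress-induced Nupr1 (0.0542) and Ltbp2 (0.0609). For Id3 they were again Nqo1 (0.0412), followed by the serpin gene Serpinb5 (0.0437), Esyt3 (0.0496) and Depdc7 (0.0696). Nqo1 went from 30.3 ± 1.32 to 77.9 ± 2.20 CPM and Krt16 from 9.45 ± 0.772 to 63.5 ± 1.74 CPM (SD, n = 3).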

How the data were processed

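The authors deposited whole-number read counts per gene, not normalized, for 6 poly(A) libraries (TruSeq Stranded mRNA, per the labels' protocols). FastQC 0.11.9, STAR 2.7.9a, featureCounts and R 4.1.1, and the builds hg38 and mm10, are named per the submitters' processing notes. The sources used here do not give the annotation release, the strand setting or the treatment of shared reads. Of 31017 symbols, 98.4% occur in GENCODE M21, which gave positions and exon lengths. Library totals were 15531790 to 20447719 counts, and 0 columns were left unassigned.

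Groups were compared with edgeR 4.0.16 (R 4.3.3): filterByExpr (minimum count 10, total 15), TMM scaling, quasi-likelihood F-test, Benjamini-Hochberg adjustment over all tested genes, threshold 0.05, prior count 0.125. The SE of a log2 fold change (KO over control) is its size over the square root of F. Alternatives were DESeq2 1.42.0, limma-voom (limma 3.58.1), another scaling, filter, prior count or gene length, a minimum fold change, a replicate block and leaving out each library. Replicates differed by more than counting noise (chi-square per degree of freedom 2.29 to 4.87). The labels do not say that replicates were separate cultures, so the p-values rest on a spread among 6 libraries that may be technical.

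The members and lists were chosen with earlier results of these data known. The text names all members, for each list the 4 genes with the smallest adjusted p (1 of them is not reported here) and any gene behind a count of 5 or fewer, and for Id1, Id2 and Id3 the 4 most similar genes. Smad1, Smad4, Smad5, Bmpr1b, Dlx2, Gata2, Krt14, Krt18 and Pdgfra were named besides, after their values were seen.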

Additional observations from a re-analysis of the deposited data

How the results depend on the processing

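Between 7 and 9 members were called in each alternative, a description, since they were chosen with these differences known. The number was 7 with a filter of 5 CPM, where 5831 of 10063 tested genes were called. It was also 7 with a minimum fold change of 1.5, where 907 of 12158 were called. In the other alternatives it was 9, and all genes called ran from 5700 to 6694. Smad9 and Atoh8 could not be tested with a filter of 5 CPM. Tested against a minimum fold change of 1.5, Id4 and Smad7 lost their calls, so that 0 members were called lower. All genes called went from 6639 to 907 (402 higher, 505 lower) and pathway genes called from 33 to 15. Under the same minimum, 0 receptors, 2 antagonists (Nog and Fstl1), 0 Smad transducers and 2 other BMP targets (Hey1 and Unc5b) were called higher, and 1 Smad transducer (Smad3), 0 bHLH partners and 1 Smad2/3 target (Ltbp3) were called lower. With a filter of 5 CPM, 2 antagonists (Nbl1 and Fstl3) and 3 other BMP targets (Gata3, Runx2 and Unc5b) were called higher, and 4 Smad transducers (Smad3, Ctdsp2, Smad4 and Tgif1) and 1 CDK inhibitor (Cdkn2c) lower. With upper quartile scaling, which moved the median by -0.02 on the log2 scale, 5 Smad transducers (these 4 and Ppm1a) and Cdkn2c, 1 CDK inhibitor, were called lower. Leaving out each library in turn, CDK inhibitors called lower ran from 0 to 1 (Cdkn2c, without KO replicate 2), and other BMP targets called lower from 0 to 1 (Tbx2, which the filter removes when all libraries are used, without control replicate 1). Over all alternatives the log2 fold change ran from 2.71 to 2.79 for Id1, from 3.80 to 4.16 for Atoh8 and from -0.58 to -0.50 for Id4, and no named gene changed direction with a call. With the replicate number as a block 6443 genes were called, and no member's call changed. No pairing by replicate number was seen: same-numbered libraries deviated with correlations of -0.06 (replicate 1), 0.04 (replicate 2) and -0.07 (replicate 3). Such values cannot tell whether these libraries were grown or processed together. Counts of at most 11 in the control libraries limit Smad9, Atoh8 and Bambi.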
